A study of Mus musculus with 8 samples.

Results

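The 7 genes described here make up the core of antigen presentation by MHC class II molecules in the mouse: H2-Aa, H2-Ab1 and H2-Eb1, Cd74, H2-DMa and H2-DMb1, and Ciita. They were chosen as the probes that carry one of these gene symbols in the array files, which gave 10 probes of the 39429 on the array and 7 of the 21807 genes tested. The RNA came from small intestine and was hybridised to 8 Agilent arrays in 1 colour, 2 for each of 4 groups. The series' design text narrows the tissue to the jejunum. All mice were female BALB/cA Jcl, 8 weeks old, and each group received an intraperitoneal injection followed by a carbon-ion exposure, with the intestine taken 4 h after it. The unirradiated controls received saline and 0 Gy, and the irradiated controls received saline and 8 Gy. The other groups received FGF1 and 8 Gy, or FGF1/CPP-C and 8 Gy, and the design text gives the pretreatment with FGF1/CPP-C as lasting 12 h. FGF1 is a secreted fibroblast growth factor, and FGF1/CPP-C is FGF1 joined to a cell-penetrating peptide. There was no unirradiated group with FGF1 or FGF1/CPP-C, so what either protein does without radiation was not measured. Whether both arrays of a group stem from different animals is not stated, so every p-value reflects the spread among these arrays, which may be technical.

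MHC class II molecules are pairs of an α chain and a β chain that carry peptides from engulfed material to the cell surface, where CD4 T cells read them. The chains are assembled around the invariant chain, which Cd74 encodes, and the DM molecule, made of H2-DMa and H2-DMb1, then exchanges the last piece of that chain for other peptides. Ciita encodes the coactivator without which these genes are hardly transcribed. In the small intestine the molecules are carried by dendritic cells, macrophages and B cells, and also by the epithelium, where interferon gamma raises them.

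The promoters of class II genes share short elements to which the factors that recruit CIITA bind. Matches to letters of such elements are shown for the genes in which they were found. The RefSeq promoter table (build GRCm38.p6) held 4 of the 7 genes, H2-Aa, H2-Eb1, H2-DMa and H2-DMb1, and the 250 bases before each start were searched on both strands. The letters were TGATTGG for the Y box, AACTGATGA for a stretch of the X box, and TGACGTCA, the cyclic AMP response element, which overlaps the X2 part of the X box in class II promoters. They were chosen after these promoters had been read. The promoter of H2-Aa, on chr17:34287852-34287922 (minus strand), that of H2-Eb1, on chr17:34305753-34305827 (plus strand), and that of H2-DMb1, on chr17:34153074-34153149 (plus strand), are printed 5′ to 3′ along the gene with the matches in capitals:
H2-Aa: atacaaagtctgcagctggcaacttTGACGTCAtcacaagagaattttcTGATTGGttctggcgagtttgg
H2-Eb1: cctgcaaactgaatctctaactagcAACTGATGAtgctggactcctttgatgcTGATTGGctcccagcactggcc
H2-DMb1: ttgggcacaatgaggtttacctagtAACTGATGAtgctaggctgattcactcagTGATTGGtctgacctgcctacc

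The Y box letters began 50 bases before the start of H2-Aa, 61 before that of H2-Eb1 and 63 before that of H2-DMb1. Upstream of them, the response element of H2-Aa began 74 bases before the start, and the X box letters of H2-Eb1 and H2-DMb1 began 89 and 92 bases before it. In both windows of H2-DMa none of these letters was found. Of all 32851 promoters in the table, 2375 (7.23%) held the Y box letters, 76 (0.231%) the X box letters and 508 (1.55%) the response element. A match describes the sequence of this genome build, and binding was not measured here. Whether the BALB/cA Jcl mice carry the same letters was not checked.

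The probes lie, in the mm9 coordinates of the array files, on chromosome 17 for H2-Aa (34421285 to 34421344, minus strand), H2-Ab1 (34406305 to 34406364), H2-Eb1 (34453075 to 34453134) and H2-DMb1 (34297109 to 34297168), on chromosome 18 for Cd74 (60972075 to 60972132) and on chromosome 16 for Ciita (10492271 to 10492330). The files give no position for the H2-DMa probe. Each of these probes except that of Ciita carries a RefSeq transcript in the files, and all 7 were well above background on all 8 arrays, with none marked as saturated. Levels are given as log2 of the processed signal minus the 75th percentile of the same array, so that 0 is that percentile, and a level of 1 probe cannot be set against that of another.

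Across the arrays the 75th percentile of the processed signal ran from 1735 to 2165, and 67.13% to 71.45% of spots were well above background. Replicate 1 of every group was on 1 slide and replicate 2 on the other. All 12 absorptive enterocyte markers with a value on every array were well above background on all of them, with summed levels of 1020 to 1560. The arrays also differed in transcripts of other organs. The summed level of 12 stomach antrum markers was 1170 and 819 in the 0 Gy saline group, 438 and 1220 in the 8 Gy saline group, 1040 and 441 in the 8 Gy FGF1 group, and 1.7 and 1.71 in the 8 Gy FGF1/CPP-C group, where 8 and 7 of the 12 were well above background. The summed level of 11 pancreatic acinar markers was 1110 on 0 Gy saline replicate 1, 480 on 8 Gy saline replicate 2 and 288 to 345 elsewhere, with 7 to 11 of them well above background on each array. Their median log2 level was 6.01 and 3.88 on those 2 arrays and -5.2 to -1.17 elsewhere, a far wider gap than the sums show. Their part in the results below was not tested. Medians without the 3 arrays of highest median antrum level (0 Gy saline replicate 1, 8 Gy saline replicate 2 and 8 Gy FGF1 replicate 1) are given below. Leaving these out did not level the groups: the antrum sums left were 819 (0 Gy saline), 438 (8 Gy saline) and 441 (8 Gy FGF1), beside 1.7 and 1.71 with FGF1/CPP-C. The part of antrum content in the FGF1/CPP-C differences therefore cannot be told apart from that of the pretreatment.

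H2-Aa and H2-Ab1 encode the α and β chains of the I-A molecule. The level of H2-Aa was -0.98 and -1.22 on the 0 Gy saline arrays, -1.42 and -2.12 on the 8 Gy saline arrays, -1.65 and -1.93 on the 8 Gy FGF1 arrays, and -1.26 and -1.24 on the 8 Gy FGF1/CPP-C arrays. The 4 arrays of 8 Gy saline and 8 Gy FGF1 were all below the other 4. The level of H2-Ab1 was 4.99 and 4.95 after 0 Gy saline, 4.58 and 4.02 after 8 Gy saline, 4.53 and 4.37 after 8 Gy FGF1, and 5.18 and 5.09 after 8 Gy FGF1/CPP-C. Here too the 8 Gy saline and 8 Gy FGF1 arrays lay below all others, and both FGF1/CPP-C arrays lay above both unirradiated ones.

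The second H2-Ab1 probe reads nearly the same stretch. The probes share 51 of their 60 bases and differ within these at 1 position, C42T, counted from 1 at the 5′ end of the brighter probe, whose base is written first. The 30 bases around the mismatch (mm9 chr17:34406326-34406355, plus strand) are shown to let the pair be compared, with the differing base in capitals:
H2-Ab1 brighter probe: agattacaaataaacgagacCcagactctg
H2-Ab1 second probe: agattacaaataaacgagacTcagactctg

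On the second probe H2-Ab1 was at 4.96 and 4.81 after 0 Gy saline, 4.55 and 3.91 after 8 Gy saline, 4.54 and 4.29 after 8 Gy FGF1, and 5.26 on FGF1/CPP-C replicate 1. Its spot on FGF1/CPP-C replicate 2 carried an outlier mark and was left out. The groups stood in the same order as on the brighter probe.

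H2-Eb1 encodes the β chain of the I-E molecule. Its level was 4.95 and 4.89 after 0 Gy saline, 4.66 and 3.99 after 8 Gy saline, 4.46 and 4.28 after 8 Gy FGF1, and 4.84 and 4.90 after 8 Gy FGF1/CPP-C. The unirradiated and FGF1/CPP-C arrays overlapped, and the other 4 arrays lay below them.

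Cd74, the invariant chain, was at 5.01 and 4.85 after 0 Gy saline, 4.50 and 3.91 after 8 Gy saline, 4.43 and 4.22 after 8 Gy FGF1, and 5.28 and 4.94 after 8 Gy FGF1/CPP-C. The lowest unirradiated array was above all 4 arrays of 8 Gy saline and 8 Gy FGF1. The unirradiated and FGF1/CPP-C arrays overlapped.

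H2-DMa and H2-DMb1 encode the chains of DM, the peptide editor of class II molecules. H2-DMa was at -0.25 and -0.35 after 0 Gy saline, -0.54 and -1.32 after 8 Gy saline, -0.67 and -0.78 after 8 Gy FGF1, and 0.08 and -0.08 after 8 Gy FGF1/CPP-C. H2-DMb1 was at 2.05 on both 0 Gy saline arrays, 1.71 and 1.19 after 8 Gy saline, 1.70 and 1.56 after 8 Gy FGF1, and 2.10 and 2.26 after 8 Gy FGF1/CPP-C. For both genes the FGF1/CPP-C arrays were the 2 highest of the 8 and 8 Gy saline replicate 2 the lowest.

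Ciita, the coactivator of the other 6 genes, was at -2.24 and -2.19 after 0 Gy saline, -2.49 and -2.99 after 8 Gy saline, -2.66 and -2.83 after 8 Gy FGF1, and -2.50 and -2.19 after 8 Gy FGF1/CPP-C. It was the member in which FGF1/CPP-C replicate 1 reached down to the 8 Gy saline group. Its 3 probes did not give the same values. The 2 that were well above background on all arrays carry no RefSeq transcript in the files, and on the second of them, which was not used, the levels were -3.56 and -3.80 after 0 Gy saline, -3.91 and -4.00 after 8 Gy saline, -3.88 and -4.00 after 8 Gy FGF1, and -3.97 and -3.76 after 8 Gy FGF1/CPP-C. There the 4 groups lay closer together, and FGF1/CPP-C replicate 1 was as low as the irradiated saline arrays. The probe that does carry a RefSeq transcript lies 34238 bases from the one used (mm9 chromosome 16, 10526568 to 10526627), and 54 of its 60 bases are A or C. It was well above background on 1 of 8 arrays, so the Ciita values rest on probes for which the files name no RefSeq transcript.

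**Figure D1:**
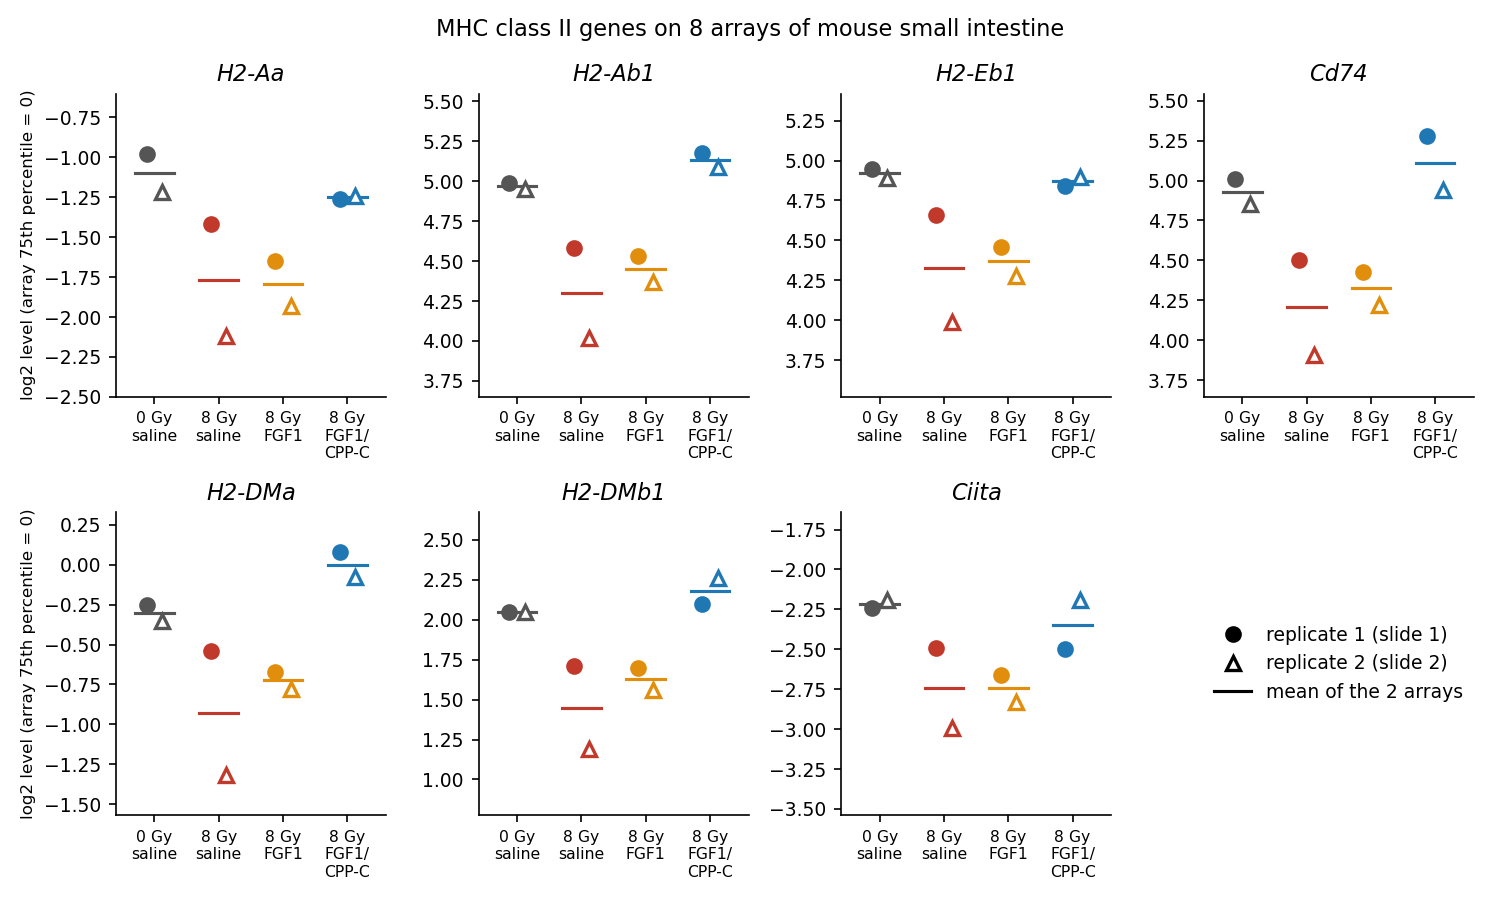
Level of each of the 7 class II genes on each array (vertical axis: log2 processed signal with the array's 75th percentile at 0; every panel spans the same log2 range), with circles for replicate 1 on slide 1, triangles for replicate 2 on slide 2 and a line at the mean of the 2 arrays. In all 7 panels 8 Gy saline replicate 2 is the lowest array, and both 8 Gy saline and both 8 Gy FGF1 arrays lie below both unirradiated arrays. Of all genes, 23.1% lay below the unirradiated arrays without overlap after 8 Gy saline and 28.3% after 8 Gy FGF1. The share of all genes meeting both, or with this array lowest, was not computed.

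Against the unirradiated controls, all 7 genes were lower after 8 Gy with saline, by 1.44-fold (Ciita) to 1.65-fold (Cd74). The largest differences were those of Cd74, -0.72 ± 0.22 (log2, SE, n = 2 arrays a group), H2-Aa, -0.68 ± 0.24, and H2-Ab1, -0.67 ± 0.19. None of the 7 passed an adjusted p of 0.05 (limma, adjusted over all genes tested: 0.245 for H2-Ab1 to 0.388 for H2-DMa), in a comparison in which 89 of 21725 genes (0.41%) passed. All 7 had an unadjusted p under 0.05, against 7.44% of all genes that were lower with such a p, and in all 7 the groups did not overlap, against 23.1% of all genes not overlapping in this direction. The number with such a p rested on single arrays: it was 1 and 2 without 0 Gy saline replicate 1 and 2, 2 without 8 Gy saline replicate 2, 4 without any 1 of the FGF1 or FGF1/CPP-C arrays, and 0 without the 3 arrays highest in antrum markers. On the second Ciita probe the difference was -0.27 ± 0.13. The median of the 7 differences was -0.63, beside -0.05 over all genes. In bulk tissue, fewer cells of a type and less RNA per cell cannot be told apart.

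The size of this difference rested largely on 8 Gy saline replicate 2. Within slide 1 the median of the 7 differences was -0.34, and within slide 2, which holds that array, it was -0.91. Without 8 Gy saline replicate 2 the median was -0.325, and without the 3 arrays highest in antrum markers it was -0.301. All 7 genes remained lower in both cases, with adjusted p of at least 0.314 and 0.518.

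After 8 Gy with FGF1 all 7 genes were again lower than in the unirradiated controls, by 1.34-fold for H2-DMa and H2-DMb1 to 1.61-fold for H2-Aa. Within slide 1 the median difference was -0.46 and within slide 2 it was -0.61, and without the 3 arrays highest in antrum markers it was -0.608. No gene passed (limma adjusted p of 0.243 for H2-Aa to 0.457 for H2-DMa), where 0.897% of all genes did. For 5 of the 7 the unadjusted p was under 0.05, against 8.83% of genes that were lower with such a p, and in all 7 the groups did not overlap, against 28.3% of all genes. The number with such a p was 0 and 1 without 0 Gy saline replicate 1 and 2, 1 and 0 without 8 Gy FGF1 replicate 1 and 2, 3 without either FGF1/CPP-C array, and 3 without the 3 arrays highest in antrum markers. On the second Ciita probe the difference was -0.25 ± 0.13. This comparison and that of saline share the unirradiated arrays and are therefore not independent of each other.

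Between FGF1 and saline at 8 Gy the 7 genes differed by -0.01 (H2-Aa) to 0.20 (H2-DMa), and in all 7 the arrays of the groups overlapped. No gene passed, the limma adjusted p being 1 for each, no member had an unadjusted p under 0.05 (4 without 8 Gy saline replicate 1), and of all 21740 genes 0 passed (0%), with 1.01% higher at an unadjusted p under 0.05. The 95% interval of the difference ran from -0.61 to 0.58 for H2-Aa and from -0.40 to 0.81 for H2-DMa. Within slide 1 the median was -0.13 and within slide 2 it was 0.31, in opposite directions. Without 8 Gy saline replicate 2 it was -0.185, and without the 3 arrays highest in antrum markers it was -0.282.

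With FGF1/CPP-C at 8 Gy all 7 genes were higher than with saline at the same dose. The differences ran from 0.40 ± 0.20 (log2, SE) for Ciita to 0.90 ± 0.22 for Cd74 and 0.93 ± 0.25 for H2-DMa, which is 1.31-fold, 1.86-fold and 1.90-fold. No member passed (limma adjusted p of 0.295 for H2-Ab1 to 0.455 for Ciita), in a comparison in which 0.0092% of all genes passed. For 5 genes the unadjusted p was under 0.05, all but H2-Aa and Ciita, against 7.36% of genes that were higher with such a p; without the 3 arrays highest in antrum markers it was so for 3 genes. In 6 of the 7, all but Ciita, the groups did not overlap, against 25.3% of all genes. The median difference was 0.73, beside 0.04 over all genes, and it was 0.39 within slide 1 and 1.03 within slide 2. Without 8 Gy saline replicate 2, and likewise without the 3 arrays highest in antrum markers, the median was 0.47 and all 7 genes remained higher. In both cases the antrum markers themselves still differed between these groups, by a median of -2.63. On the second Ciita probe the difference was 0.08 ± 0.13. This comparison and that of 8 Gy saline with 0 Gy saline share the 8 Gy saline arrays, with opposite sign, and are not independent. A low 8 Gy saline array lowers the values of the one and raises those of the other, here and in the gene lists below.

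The growth factor forms were also set against each other at 8 Gy. The saline arrays do not enter these differences, but they enter the shared estimate of the spread and so the SEs and p-values. All 7 genes were higher with FGF1/CPP-C than with FGF1, by 0.40 ± 0.20 (log2, SE) for Ciita to 0.78 ± 0.22 for Cd74, and in all 7 the groups did not overlap, against 24.7% of all genes. On the second Ciita probe the difference was 0.07 ± 0.13 and the groups overlapped. None passed (limma adjusted p of 0.392 for H2-Ab1 to 0.632 for Ciita), where 0.00919% of all genes did. For 4 genes, H2-Ab1, H2-DMa, H2-DMb1 and Cd74, the unadjusted p was under 0.05, against 5.47% of genes that were higher with such a p. That number was 7 without either 8 Gy saline array, 3 and 0 without 8 Gy FGF1 replicate 1 and 2, and 1 and 2 without FGF1/CPP-C replicate 1 and 2. The median was 0.40 within slide 1 and 0.70 within slide 2, and it was 0.682 without the 3 arrays highest in antrum markers. The doses of FGF1 and FGF1/CPP-C are not given in the sources used here.

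Set against the unirradiated controls, the FGF1/CPP-C arrays differed by -0.15 (H2-Aa) to 0.30 (H2-DMa), with 3 genes lower, 4 higher and a median of 0.13, which was 0.133 to 3 decimals with and without the 3 arrays highest in antrum markers. No member passed (limma adjusted p of 0.511 to 0.91) and none had an unadjusted p under 0.05, although this comparison had the most genes past the threshold, 438 or 2.01%, and 11% of genes were higher with such a p. The 95% interval ran from -0.75 to 0.44 for H2-Aa, from -0.62 to 0.35 for Ciita and from -0.37 to 0.73 for Cd74. The test over all 4 groups together, limma's moderated F-test, passed for 0 of the 7 genes, with adjusted p of 0.192 for H2-Ab1 to 0.365 for Ciita, and for 0.396% of all genes. With 2 arrays a group, an exact permutation test of a single gene cannot give a p below 0.333.

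**Figure D2:**
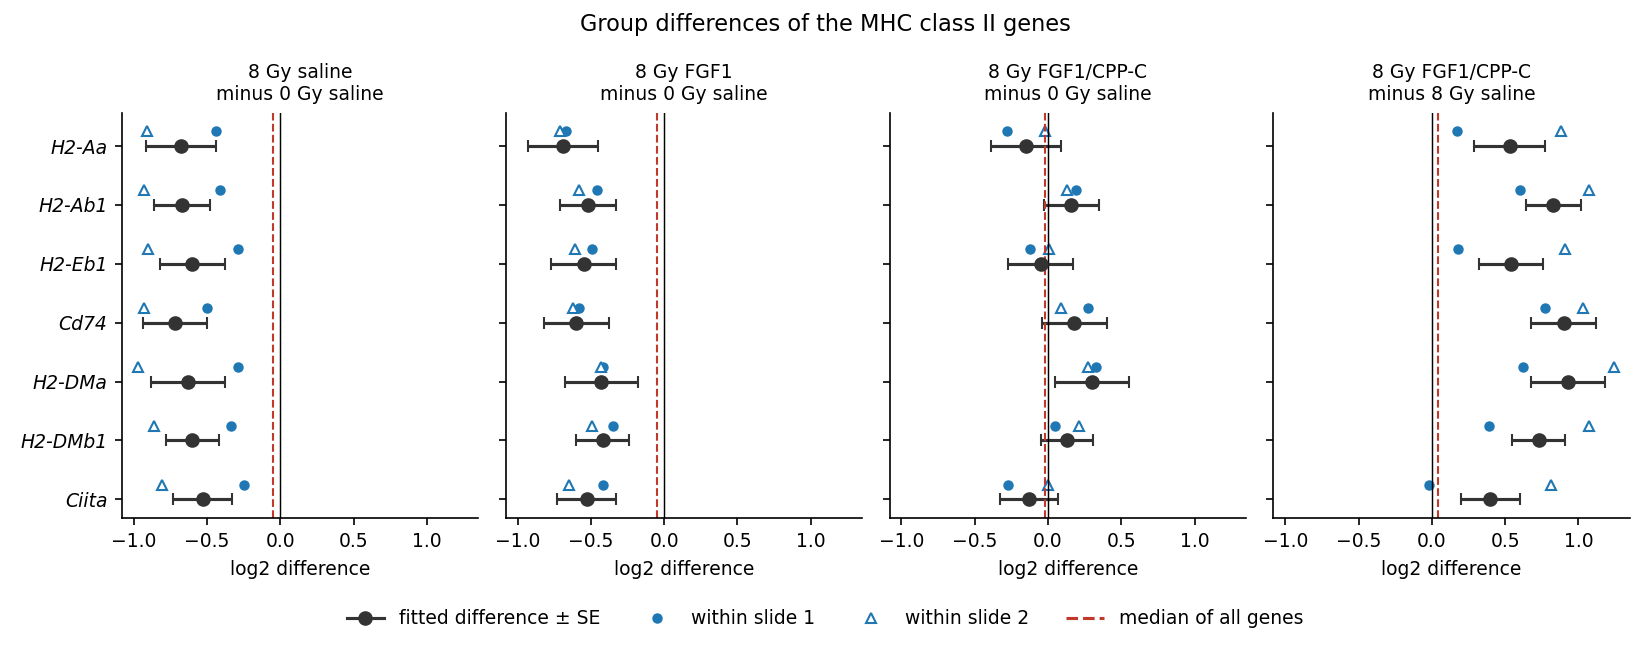
Fitted log2 differences of the 7 class II genes in 4 comparisons (horizontal axis; black points with bars of 1 SE, 2 arrays a group), with the difference within each slide in blue and the median of all genes as a dashed line. All 7 lie below 0 for 8 Gy saline and 8 Gy FGF1 against 0 Gy saline, on both sides of 0 where FGF1/CPP-C is set against 0 Gy saline, and above 0 where it is set against 8 Gy saline.

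By group mean, 5 genes stood highest with FGF1/CPP-C or after 0 Gy saline and lowest after 8 Gy saline: H2-Ab1, H2-Eb1, H2-DMa, H2-DMb1 and Cd74. For H2-Aa and Ciita the 8 Gy FGF1 mean differed from the 8 Gy saline mean by -0.01 and 0. Neither pair of neighbours in this order, 8 Gy saline with 8 Gy FGF1 or 0 Gy saline with FGF1/CPP-C, had a member past the threshold or with an unadjusted p under 0.05. Centred on its own mean over the 8 arrays and averaged over the 7 genes, the level was 0.31 and 0.24 after 0 Gy saline, -0.05 and -0.66 after 8 Gy saline, -0.17 and -0.35 after 8 Gy FGF1, and 0.34 on both FGF1/CPP-C arrays. The genes kept close to each other on each array: on 8 Gy saline replicate 2 the 7 centred levels ran from -0.83 to -0.48. On FGF1/CPP-C replicate 1 they were furthest apart, from 0.01 for Ciita to 0.63.

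The rest of the class II locus could be followed in 4 further genes, H2-Ea, H2-Eb2, H2-Oa and H2-Ob, of the 5 listed. H2-Oa and H2-Ob were added to this list after their values had been seen, so its counts and medians rest partly on that choice. H2-Ea encodes the α chain that pairs with H2-Eb1, and H2-Oa and H2-Ob encode DO, a partner of DM found mainly in B cells. None passed in any of the 6 comparisons. Their median was -0.27 for 8 Gy saline against 0 Gy saline and 0.18 without the 3 arrays highest in antrum markers. With FGF1/CPP-C all 4 were higher than with saline at 8 Gy, with a median of 0.76 that was 0.04 within slide 1 and 1.49 within slide 2. This median was 0.31 without FGF1/CPP-C replicate 2 and 0.39 without those 3 arrays. H2-Ea was at -1.72 and -1.78 after 0 Gy saline, -1.93 and -2.40 after 8 Gy saline, -1.91 and -2.12 after 8 Gy FGF1, and -1.94 and -1.53 after 8 Gy FGF1/CPP-C. Its difference between 8 Gy saline and 0 Gy saline, -0.42 ± 0.21 (log2, SE; limma adjusted p = 0.488), had the same sign as that of its partner. With FGF1/CPP-C, replicate 1 lay at the level of the higher 8 Gy saline array and replicate 2 was the highest of all 8 arrays. H2-Oa and H2-Eb2 stood out on FGF1/CPP-C replicate 2, at -1.17 and -4.32, where their other 7 arrays were at -3.27 to -2.46 and at -6.38 to -5.51. H2-Eb2 was well above background on 5 of the 8 arrays.

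The machinery that supplies peptides to class II molecules had medians near 0. Of 12 genes for endosomal proteases, the thiol reductase, ubiquitin ligases and tetraspanins of this pathway, 7 were higher and 5 lower after 8 Gy saline than after 0 Gy saline, with a median of 0.04, and 6 were higher and 6 lower with FGF1/CPP-C than with saline at 8 Gy, with a median of -0.02, whose sign changed with the scaling between arrays. Without the 3 arrays highest in antrum markers these medians were 0.09 and -0.03. Lgmn, an asparaginyl endopeptidase of endosomes and lysosomes, was the gene of this list that passed. It was at 3.12 and 3.26 after 0 Gy saline, 3.56 and 3.46 after 8 Gy saline, 3.75 and 3.85 after 8 Gy FGF1, and 3.85 and 3.77 after 8 Gy FGF1/CPP-C, and rose by 0.62 ± 0.10 (log2, SE) with FGF1/CPP-C against 0 Gy saline (limma adjusted p = 0.0478). Unlike the 7 genes, its irradiated arrays were all above the unirradiated ones. The call was made under 6 of 19 other settings, with adjusted p up to 0.24.

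The factors that bind class II promoters, and their partners, also stayed near the median of all genes. Of 13 such genes, which include the subunits of RFX and NF-Y, CREB and coactivators, 0 passed in any comparison, and the median difference was 0.03 for 8 Gy saline against 0 Gy saline and 0.16 between FGF1/CPP-C and saline at 8 Gy. Without the 3 arrays highest in antrum markers these medians were 0.12 and 0.02. Nfyb, a subunit of the factor that binds the Y box, was at -0.52 and -0.79 after 0 Gy saline, -0.08 and -0.35 after 8 Gy saline, -0.22 and -0.12 after 8 Gy FGF1, and -0.48 and -0.58 after 8 Gy FGF1/CPP-C. It stood highest in the groups in which the 7 genes were lowest, with 0.44 ± 0.14 for 8 Gy saline against 0 Gy saline (limma adjusted p = 0.304). Rfxank, a subunit of RFX, differed by -0.25 ± 0.11 in the same comparison (adjusted p = 0.439).

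The interferon gamma pathway, which drives Ciita in many cells, was represented by its receptor, kinases, IRFs and target genes. Of 24 tested, 17 were lower and 7 higher after 8 Gy saline than after 0 Gy saline, with a median of -0.17, and 20 were higher and 4 lower with FGF1/CPP-C than with saline at 8 Gy, with a median of 0.40. None passed in any comparison. At an unadjusted limma p under 0.05, 3 were lower and 1 higher after 8 Gy saline, against 7.44% of all genes lower. With FGF1/CPP-C against 8 Gy saline 11 were higher and 1 lower at that p, against 7.36% of all genes higher. Without 8 Gy saline replicate 2 the first median was 0.04 and the second 0.20, and without the 3 arrays highest in antrum markers they were 0.08 and 0.20. Irf8, a transcription factor of macrophages and dendritic cells, was at 2.49 and 2.48 after 0 Gy saline, 2.97 and 2.54 after 8 Gy saline, 2.98 and 3.07 after 8 Gy FGF1, and 3.17 and 3.25 after 8 Gy FGF1/CPP-C. Socs3, a feedback inhibitor of cytokine signalling, was at 0.91 and 0.80 after 0 Gy saline and between 1.62 and 2.87 on all irradiated arrays. Neither followed the order of the class II genes. These genes were named for their F-test p and do not stand for the list. Gbp4, of the same list, did run with the class II genes (Pearson's r = 0.965 with their mean over the arrays). Ifng itself was not measured above the filter.

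MHC class I presentation was followed through its heavy chains, transporters and immunoproteasome. Of 25 genes tested, 22 were lower after 8 Gy saline than after 0 Gy saline, with a median of -0.18, but without 8 Gy saline replicate 2 the median was 0.02, and without the 3 arrays highest in antrum markers it was -0.04. With FGF1/CPP-C 23 of 25 were higher than with saline at 8 Gy, with a median of 0.39, and 0.19 without that array or without those 3. No gene passed in any comparison. At an unadjusted limma p under 0.05, 1 was lower after 8 Gy saline than after 0 Gy saline, against 7.44% of all genes. With FGF1/CPP-C against 8 Gy saline 11 were higher and 1 lower at that p, against 7.36% of all genes higher. Nlrc5, the class I counterpart of Ciita, was at -2.67 and -2.90 after 0 Gy saline, -2.62 and -3.11 after 8 Gy saline, -2.57 and -2.82 after 8 Gy FGF1, and -1.99 and -1.79 after 8 Gy FGF1/CPP-C. Both FGF1/CPP-C arrays were above all other arrays, with a difference of 0.97 ± 0.20 (log2, SE) from 8 Gy saline (limma adjusted p = 0.273). Calr, a chaperone of class I assembly, was lowest there, at 4.27 and 4.22, against 4.47 to 4.70 on the other 6 arrays.

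Of 13 costimulatory and T cell contact genes, 9 were lower after 8 Gy saline than after 0 Gy saline and 12 were higher with FGF1/CPP-C than with saline at 8 Gy, with medians of -0.21 and 0.32. None passed. Without 8 Gy saline replicate 2 these medians were 0.08 and 0.12, and without the 3 arrays highest in antrum markers 0.04 and 0.12. At an unadjusted limma p under 0.05, 0 were lower after 8 Gy saline than after 0 Gy saline, against 7.44% of all genes. With FGF1/CPP-C 4 were higher than with saline at 8 Gy at that p, against 7.36%. Cd274, which encodes the inhibitory ligand PD-L1, was at -2.55 and -2.60 after 0 Gy saline, -2.49 and -3.08 after 8 Gy saline, -2.72 and -2.68 after 8 Gy FGF1, and -2.13 and -2.16 after 8 Gy FGF1/CPP-C. Icosl, a ligand of the costimulatory receptor ICOS, differed by 0.22 ± 0.11 for 8 Gy saline against 0 Gy saline (limma adjusted p = 0.473).

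**Figure D3:**
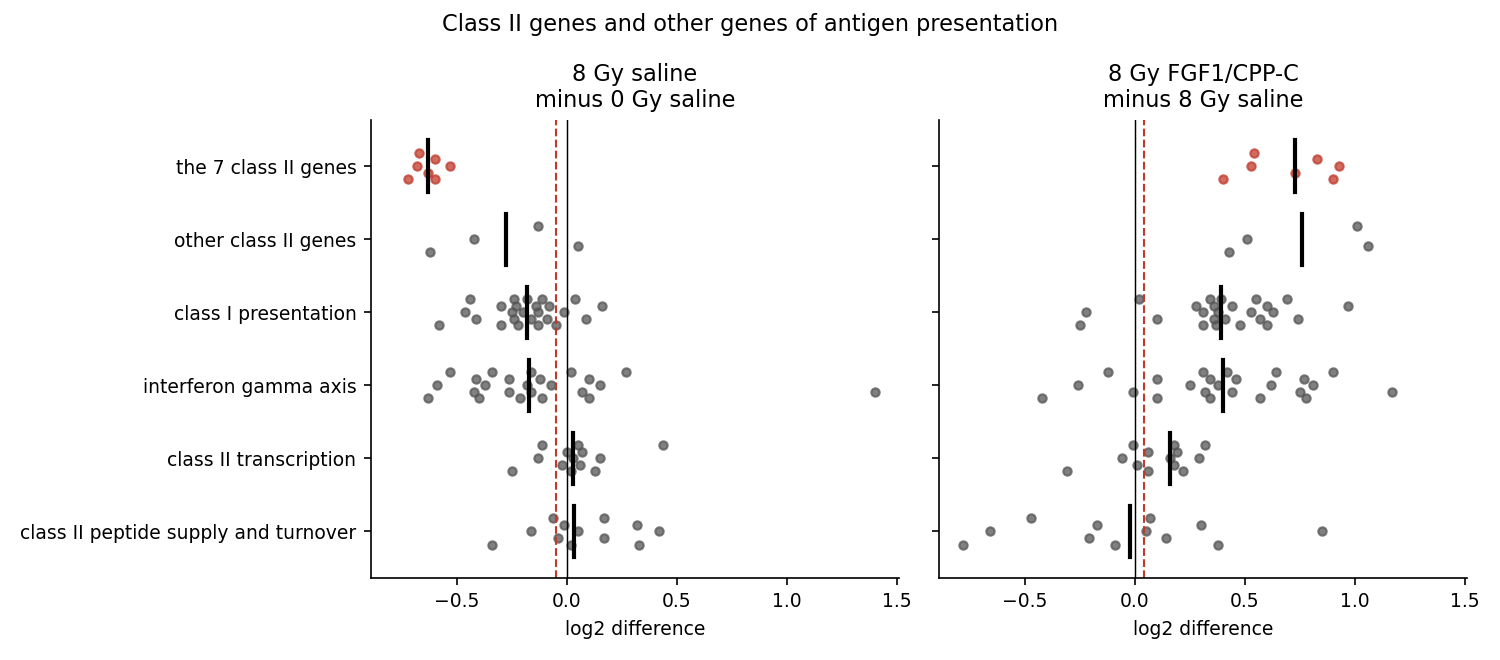
Log2 difference (horizontal axis) of each of the 7 class II genes (red) and of each gene of 5 companion lists (grey), with the list median as a black bar and the median of all genes as a dashed line. The 7 genes lie between -0.72 and -0.53 on the left and between 0.40 and 0.93 on the right, while the lists of class II transcription and of peptide supply lie on both sides of 0 in both panels.

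Markers of the cells that carry class II molecules were compared with the 7 genes array by array. Of 12 dendritic cell markers 10 were lower after 8 Gy saline than after 0 Gy saline, with a median of -0.44, and 10 were higher with FGF1/CPP-C than with saline at 8 Gy, with a median of 0.39. None passed, and without 8 Gy saline replicate 2 these medians were -0.20 and 0.13, and without the 3 arrays highest in antrum markers -0.25 and 0.13. At an unadjusted limma p under 0.05, 4 were lower after 8 Gy saline than after 0 Gy saline, against 7.44% of all genes. With FGF1/CPP-C against 8 Gy saline 2 were higher and 1 lower at that p, against 7.36% of all genes higher. The mean centred level of these markers was 0.23 and 0.15 after 0 Gy saline, 0.02 and -0.32 after 8 Gy saline, -0.04 and -0.27 after 8 Gy FGF1, and 0.11 and 0.13 after 8 Gy FGF1/CPP-C. These markers ran with the 7 genes across the groups, and their part in the result was not tested. Individual markers went other ways: Cd209a, a lectin of dendritic cells, was at -2.43 and -2.41 after 8 Gy FGF1/CPP-C, near its 8 Gy saline levels of -2.19 and -2.56, and Clec10a, another such lectin, was lowest there, at -3.98 and -5.26.

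Macrophage markers were less alike. Of 13 tested, 11 were lower after 8 Gy saline than after 0 Gy saline and 12 were higher with FGF1/CPP-C than with saline at 8 Gy, with medians of -0.17 and 0.46 and none past the threshold. Without the 3 arrays highest in antrum markers these medians were -0.11 and 0.34. At an unadjusted limma p under 0.05, 3 markers were lower after 8 Gy saline than after 0 Gy saline, against 7.44% of all genes. With FGF1/CPP-C against 8 Gy saline 6 markers were higher and 1 lower at that p, against 7.36% of all genes higher. After 8 Gy FGF1, where the class II genes were low, their mean centred level was 0.05 and 0.01, beside -0.03 and 0.05 after 0 Gy saline. Adgre1, a surface receptor of macrophages, was at -1.52 on both 8 Gy FGF1 arrays, above -1.94 and -1.66 on the unirradiated ones. C1qc, a complement component made by macrophages, was at 1.36 and 1.38 after 8 Gy FGF1 and 1.08 and 1.18 after 0 Gy saline.

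T cells and intraepithelial lymphocytes, most of which carry no class II molecules in the mouse, ran with the class II genes as well. Of 13 markers tested, 12 were lower after 8 Gy saline than after 0 Gy saline, with a median of -0.56, and 12 were higher with FGF1/CPP-C than with saline at 8 Gy, with a median of 0.71. None passed, and without 8 Gy saline replicate 2 these medians were -0.27 and 0.42, and without the 3 arrays highest in antrum markers -0.42 and 0.42. At an unadjusted limma p under 0.05, 6 markers were lower after 8 Gy saline than after 0 Gy saline, against 7.44% of all genes. With FGF1/CPP-C 9 markers were higher than with saline at 8 Gy at that p, against 7.36%. Their mean centred level was 0.17 and 0.30 after 0 Gy saline, -0.08 and -0.51 after 8 Gy saline, -0.20 and -0.27 after 8 Gy FGF1, and 0.21 and 0.38 after 8 Gy FGF1/CPP-C. Cd8b1, the β chain of CD8, was at -4.64 and -5.09 after 0 Gy saline, -5.79 and -6.10 after 8 Gy saline, -5.45 and -5.69 after 8 Gy FGF1, and -5.20 and -5.13 after 8 Gy FGF1/CPP-C, a difference of -1.08 ± 0.19 (log2, SE) for 8 Gy saline against 0 Gy saline (limma adjusted p = 0.12). It was well above background on 7 of the 8 arrays. Thy1 differed by -0.47 ± 0.14 in that comparison (adjusted p = 0.259) and was at -0.58 and -0.31 with FGF1/CPP-C, beside -0.61 and -0.37 with saline at 8 Gy and -0.07 and 0.04 after 0 Gy saline, so that the FGF1/CPP-C and 8 Gy saline arrays overlapped. The part of lymphocyte number in the class II differences was not tested.

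B cell markers set 1 array apart. Of 12 tested, all 12 were lower after 8 Gy saline than after 0 Gy saline, with a median of -0.31 that was -0.20 without 8 Gy saline replicate 2 and 0.04 without the 3 arrays highest in antrum markers. With FGF1/CPP-C 11 were higher than with saline at 8 Gy, with a median of 1.17 that was 0.28 without FGF1/CPP-C replicate 2 and 0.97 without those 3 arrays. The summed level of 12 B cell and follicle markers was 7.92 on FGF1/CPP-C replicate 2 and 2.25 to 3.29 on the other 7 arrays, and this is the array on which H2-Oa and H2-Eb2 stood out. On FGF1/CPP-C replicate 1 the B cell sum was 2.91. The mean centred level of the 7 class II genes was 0.34 on both of these arrays, with 4 of them higher on replicate 2 (H2-Aa, H2-Eb1, H2-DMb1 and Ciita) and 3 higher on replicate 1, and the part of B cells in their levels was not tested. Cd22, which encodes a surface receptor of B cells, was the marker that passed. It fell by 0.62 on the log2 scale with FGF1/CPP-C against 0 Gy saline (SE 0.09, limma adjusted p = 0.0417), a call made under 7 of 19 other settings. The other 11 markers were higher in that comparison. The median of the 12 was 0.77, but it was -0.23 within slide 1 and 1.65 within slide 2, which holds FGF1/CPP-C replicate 2. Absorptive enterocyte markers, from cells that can carry class II molecules, had mean centred levels of -0.24 and -0.02 after 0 Gy saline, 0.07 and -0.34 after 8 Gy saline, -0.07 and 0.09 after 8 Gy FGF1, and 0.31 and 0.20 after 8 Gy FGF1/CPP-C, so that they were high with FGF1/CPP-C like the class II genes but not in the unirradiated group. The 3 measured markers of group 3 innate lymphoid cells, which can present antigen on class II molecules, were all lower after 8 Gy saline than after 0 Gy saline and all higher with FGF1/CPP-C than with saline at 8 Gy, with medians of -0.31 and 0.36, -0.24 and 0.25 without the 3 arrays highest in antrum markers, and none past the threshold.

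**Figure D4:**
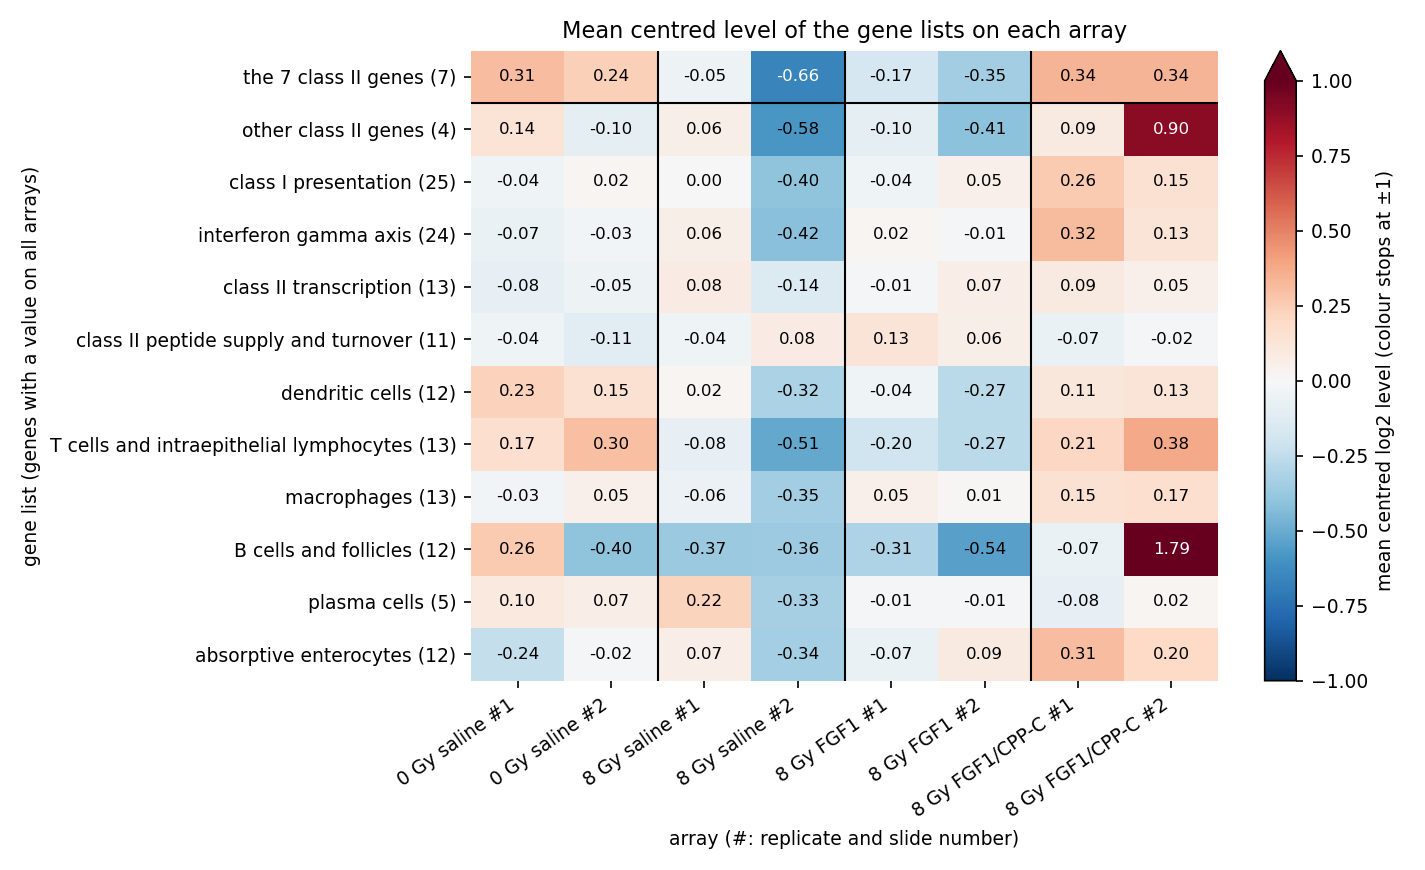
Mean centred log2 level (colour and printed value; 0 is the mean over the 8 arrays) of the 7 class II genes and of 11 companion lists on each array, with the number of genes in brackets and lines between the groups. Dendritic cell and T cell markers share the row pattern of the class II genes, 8 Gy saline replicate 2 is low in most rows, and the B cell row is set by FGF1/CPP-C replicate 2 at 1.79.

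The genes whose levels over the 8 arrays were most like the mean of the 7 class II genes were named from 6042 candidates, with Pearson's r given as a description, since the arrays share 4 groups. The closest was Clec9a, a receptor of cross-presenting dendritic cells (r = 0.982), at -2.42 and -2.52 after 0 Gy saline, -2.76 and -3.22 after 8 Gy saline, -2.78 and -2.87 after 8 Gy FGF1, and -2.51 and -2.38 after 8 Gy FGF1/CPP-C. Lck, the kinase of the T cell receptor (r = 0.965), and Gbp4, a GTPase induced by interferons (r = 0.965), were also among the 10. The widest swing was that of Ankrd37, a gene induced by low oxygen (r = 0.978), at 0.34 and 0.21 after 0 Gy saline, -0.74 and -1.75 after 8 Gy saline, -0.77 and -0.83 after 8 Gy FGF1, and 0.19 and 0.27 after 8 Gy FGF1/CPP-C. Stac2, Akna, Clec2i, Sema4g and Podnl1 were also among them, with r of 0.966 to 0.98, and none of the 10 passed in any of the 6 comparisons (lowest limma adjusted p = 0.145, for Ankrd37).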

How the data were processed

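Each sample was 1 Cy3-labelled array, 2 for each of 4 groups, read with Agilent Feature Extraction 9.5.3.1 per the submitters' processing notes. The deposited processed signal is an intensity on a linear scale, background-subtracted and detrended within the array per the file headers. The series matrix holds the same signal values, with 12562 to 14066 spots left empty on each array. It was used as an alternative with the same scaling.

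For every array the signals were divided by their 75th percentile over the 43020 spots that are not controls, set to a floor of -6.95 on the log2 scale and log2-transformed. Outlier-marked spots and the 1377 controls were dropped, and spots were averaged to 39429 probes. Probes well above background on the 2 arrays of at least 1 group were retained (27538), and the brightest stood for its gene (21807 genes). Members were matched on the files' gene symbol, and other genes were named through RefSeq (GRCm38.p6, names only). The 4 group means were fitted to all 8 arrays with limma 3.58.1 in R 4.3.3, and p-values were adjusted by Benjamini and Hochberg's method across the genes tested. The R package data.table (version 1.17.8), Python 3.11.15 and matplotlib 3.10.9 were also used. The fit was tested on simulated data. No source used here states how the submitters scaled between arrays.

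The members, gene lists and tests were chosen with earlier results of these data known. From each companion list the rule named up to 4 genes that passed in any comparison, or else the 2 with the smallest p of the F-test; not all of these are described. H2-Oa and H2-Ob were added after their values were seen. Likeness took the 10 genes with an SD of at least 0.2 over the arrays and the highest correlation. Of these, 1 is not reported here. Alternatives were another scaling (array median, quantile), normexp background correction with an offset of 50, and the series matrix with its empty spots. Further ones were other filters and probe rules, only the groups compared, moderation with trend and robust, the slide in the fit, and arrays left out. The number of arrays limits the precision.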

Additional observations from a re-analysis of the deposited data

How the results depend on the processing

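No member passed in any of the 6 comparisons under 20 other settings, 8 of which left out 1 array, and the F-test, not run with only the 2 groups compared, passed for none. Directions did not change in 4 comparisons: over 19 of these settings, all but that with each probe on its own, the members' log2 differences ran from -1.03 to -0.19 for 8 Gy saline minus 0 Gy saline (adjusted p 0.0918 to 0.838), from -0.83 to -0.33 for 8 Gy FGF1 minus 0 Gy saline, from 0.14 to 1.32 for FGF1/CPP-C minus 8 Gy saline (0.0779 to 0.937) and from 0.23 to 0.95 for FGF1/CPP-C minus 8 Gy FGF1. On the second Ciita probe, fitted with each probe on its own, the last 2 differences were 0.08 and 0.07. The sign changed in 21 of 133 values for FGF1 minus saline at 8 Gy and in 2 of 133 for FGF1/CPP-C minus 0 Gy saline. Part of the 133 values of each comparison could not differ from the main ones. The filters on dim probes, only the 2 groups compared, the slide block and the moderation left each member's difference as it was. So did leaving out an array of a group that was not compared. The median of the members for FGF1 minus saline was -0.282 without the 3 arrays highest in antrum markers, and -0.282 to 0.412 with arrays left out. That for FGF1/CPP-C minus 0 Gy saline was 0.242 with the array median, which moved the median of all genes from -0.023 to 0.085, 0.087 with quantile normalisation, and 0.024 to 0.133 with arrays left out. The medians for 8 Gy saline minus 0 Gy saline and for FGF1/CPP-C minus 8 Gy saline ran from -0.952 (without 8 Gy saline replicate 1) to -0.301 and from 0.47 to 0.993 with arrays left out. The cause was not tested.

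With slide as a replicate block no member passed either, the lowest adjusted p being 0.178 for Cd74 in 8 Gy saline minus 0 Gy saline, but the block moved the number of all genes past the threshold from 89 to 37 there, from 195 to 84 for FGF1 and from 438 to 176 for FGF1/CPP-C minus 0 Gy saline. Without either 0 Gy saline array, or with only the 2 groups compared, 0 genes passed for 8 Gy saline minus 0 Gy saline. The trend and robust setting ran on genes with a value on all arrays. Replicate number equals slide, and the deviations of same-numbered arrays from their group means correlated from -0.52 to 0.54 across genes between pairs of groups, so the numbers were not taken to pair the arrays.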
